A study of Homo sapiens with 6 samples.

Results

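The ERBB receptors EGFR, ERBB2, ERBB3 and ERBB4 and the neuregulins NRG1, NRG2, NRG3 and NRG4 were examined in 2 cell lines derived from xenograft tumors of T47Dco, a subline of the T47D luminal breast cancer line. Members were chosen by gene name on the array, which gave 18 probes of 8 genes among 34127 gene probes. RNA was measured on 1-colour Agilent arrays, each holding 1 sample, with 3 arrays of pLUM cells and 3 of pLB cells. pLUM, the pure luminal line, came from a xenograft tumor grown with estradiol (E), was sorted as claudin 3 positive and CD49f negative, is kept in E and received 1 nM E for 72 h. pLB, the luminobasal line, came from a tumor grown with E plus progesterone, was sorted as claudin 3 negative and CD49f positive, and was under estrogen withdrawal (EWD). Both were grown in medium with 5% charcoal-stripped serum, and both were fixed, stained for cytokeratin 5 (CK5) and sorted by it before RNA extraction. Which CK5 fraction went onto the arrays is not given in the labels. Each line is a single derivation, so that p-values measure the spread between sorts of the same line. Line and E coincided on every array, and their effects cannot be told apart.

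ERBB receptors are tyrosine kinases of the cell surface that act as pairs. EGFR and ERBB4 bind ligands and have active kinases, ERBB2 binds no known ligand and is the favored partner of the others, and ERBB3 binds neuregulins but has little kinase activity and signals through its partner to PI3 kinase. Neuregulins are ligands with an EGF-like domain, of which NRG1 and NRG2 bind ERBB3 and ERBB4 whereas NRG3 and NRG4 bind ERBB4. In breast epithelium EGFR is known as a receptor of basal cells and ERBB3 and ERBB4 as receptors of luminal cells.

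Signals are given as log2 of the intensity relative to the 75th percentile of the array, so that 0 is the level of that percentile. A probe was tested if it was well above background, by the scanner software's own flag, on at least 3 of the 6 arrays. It was called if the lines differed at least 2-fold with a Benjamini-Hochberg adjusted p under 0.05 in limma. If no array of a line showed a probe well above background, the fold is a lower bound, set by the lowest signal that was well above background on each array. The lowest such signals were between -5.71 and -4.75. The number of probes well above background was 21285 to 22775 an array, and Pearson's r across probes was 0.972 to 0.991 within a line and 0.780 to 0.806 between lines. Slide 1 held pLB replicate 1 beside all 3 pLUM arrays, and slide 2 held pLB replicates 2 and 3. With the slide as a block, a change therefore rests on pLB replicate 1 alone against the pLUM arrays, and is given as a size only. With 3 arrays a line, the smallest two-sided p of an exact permutation test is 0.1. Scaling on the spike-in controls in place of the percentile moved the median change of all genes from 0.04 to 0.29 on the log2 scale, and the share of called probes that were higher in pLB from 48.0% to 58.4%. All changes below are relative to the array's percentile.

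The lines carried the markers of their names, which was in part fixed by how they were made. CLDN3 and ITGA6 (CD49f) encode the proteins by which the lines were sorted, and KRT5 the one by which cells were sorted before RNA extraction. The paper's own marker table gives mRNA folds between these lines for most of the other markers. The counts are therefore a description and not an independent test. Of 10 luminal markers, 9 were lower in pLB, with the progesterone receptor gene PGR at least 67.5-fold, MUC1 116-fold and CLDN3 104-fold lower. KRT18 was not called (log2 change -0.62), and the probes of KRT8 were called in opposite directions. All 8 basal markers were higher in pLB, with KRT5, which encodes CK5, at least 1754-fold and KRT14 at least 551-fold higher. KRT17 was fitted 708-fold higher, with 1 of 3 pLUM arrays well above background. Of 12 stromal, endothelial and blood markers, 7 were tested and 3 were higher in pLB, namely COL1A2 at least 11.5-fold, CD68 2.87-fold and VWF at least 1.80-fold. COL3A1, DCN, LUM, PDGFRB and PECAM1 were well above background on no array. The summed signal of this list, in units of the 75th percentile, was 1.09 to 1.17 in pLUM and 1.07 to 1.60 in pLB.

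To show which part of a messenger RNA was read, 3 probes that lie in coding sequence are given here as 60 bases in the sense direction. In the EGFR and ERBB3 probes, capitals mark TGC and TGT codons, which encode cysteine, in the only reading frame without a stop codon. Each of these probes holds 3. Both lie in the cysteine-rich extracellular part of the receptor. The NRG4 probe lies in the coding sequence of the EGF-like domain. It has 2 frames without a stop codon, and no codon is marked. These placements are background knowledge of the proteins and were not taken from an annotation of hg19, which was not used here.
EGFR A_33_P3351955: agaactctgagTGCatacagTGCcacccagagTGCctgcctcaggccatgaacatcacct
ERBB3 A_33_P3280471: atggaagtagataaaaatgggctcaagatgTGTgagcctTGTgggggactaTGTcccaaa
NRG4 A_23_P334727: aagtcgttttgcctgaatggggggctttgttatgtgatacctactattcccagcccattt

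EGFR and ERBB4 differed most between the lines and in opposite directions. EGFR was higher in pLB and ERBB4 was lower, ERBB3 was also lower, and ERBB2 differed less than 2-fold by its main probe. NRG4 and NRG2 were higher in pLB, from low signals, while NRG1 and NRG3 were not well above background in either line. Of the 18 probes, 11 were tested, of which 6 were called higher and 4 lower in pLB. Among all 23099 tested probes 21.9% were called higher and 23.7% lower. The arrays of the lines did not overlap for any of the 11, as was the case for 68.1% of all tested probes. Among the 11, the NM_201283 probe of EGFR, the coding probe of ERBB3 and the main probe of ERBB4 passed the filter through their brighter line alone. For such probes the filter itself favors a call and a lack of overlap, so these counts are a description. By gene, each represented by its tested probe with the highest mean, 6 of 8 were tested, 3 were higher and 2 lower, beside 22.7% higher and 23.0% lower of 17667 genes.

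**Figure D1:**
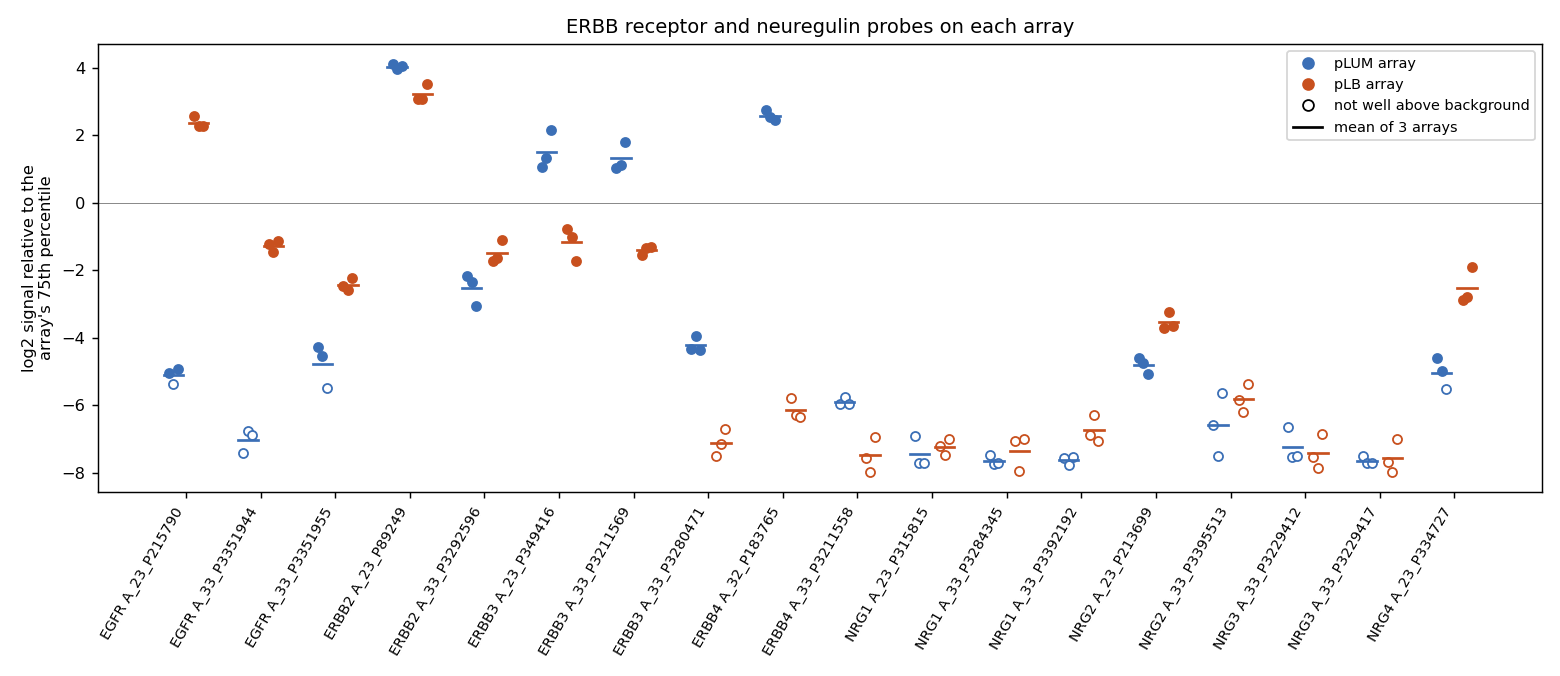
Signal of the 18 member probes on each array, as log2 relative to the array's 75th percentile, for pLUM (blue) and pLB (orange), with bars at the mean of 3 arrays and open points where the probe was not well above background. EGFR probes sit higher on pLB arrays, ERBB3 and the tested ERBB4 probe sit higher on pLUM arrays, and the 7 probes of open points alone belong to ERBB4, NRG1, NRG2 and NRG3.

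EGFR, the receptor of EGF, TGF-alpha and amphiregulin, was read by 3 probes on the plus strand of chromosome 7 (hg19). The probe with the highest signal, at 55274841 to 55274900, is assigned to NM_005228, the full-length receptor, and was printed as 10 spots on each array. Its signal on pLUM replicates 1 to 3 was -5.05, -5.37 and -4.91, and that on pLB replicates 1 to 3 was 2.59, 2.27 and 2.28. Thus the lines were far apart, and pLUM signals lay at the edge of detection. The scanner flagged 6, 2 and 10 of its 10 spots as well above background on the pLUM arrays in this order, and all 10 on each pLB array, so that 2 of 3 pLUM arrays counted as above background. EGFR was 180-fold higher in pLB (log2 change 7.49, SE 0.19, 95% interval 7.04 to 7.94, limma adjusted p = 4.1e-07). With normexp background correction and an offset of 50 added to each intensity, its log2 change was 4.87.

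The other EGFR probes are assigned to transcripts that encode truncated receptors. These assignments are labels of the array. Whether the probes also read the full-length transcript was not tested, so they are not taken as measures of separate transcripts. The probe for NM_201283, at 55224558 to 55224617, read -7.41, -6.78 and -6.89 on pLUM replicates 1 to 3, and -1.21, -1.47 and -1.13 on pLB replicates 1 to 3. All pLB arrays and no pLUM array showed it well above background, and the increase in pLB was at least 17.2-fold, or at least 3.12-fold with normexp. The probe for NM_201282, at 55231446 to 55231505, whose sequence is shown above, read -4.27, -4.55 and -5.49 on pLUM and -2.47, -2.59 and -2.23 on pLB. Again the lines did not overlap, although the pLUM replicates were 2 of 3 above background and pLUM replicate 3 lay below the others. This probe was 5.07-fold higher in pLB (log2 change 2.34, SE 0.32, limma adjusted p = 0.00056), which normexp reduced to 0.54 without a call. The change of this probe minus that of the EGFR probe with the highest signal was -5.15 (SE 0.41) on the log2 scale. Its limma adjusted p was 0.00025 over 5432 such pairs of probes, of which 32.6% were called. Whether this gap lies in the transcripts or in the probes was not tested.

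**Figure D2:**
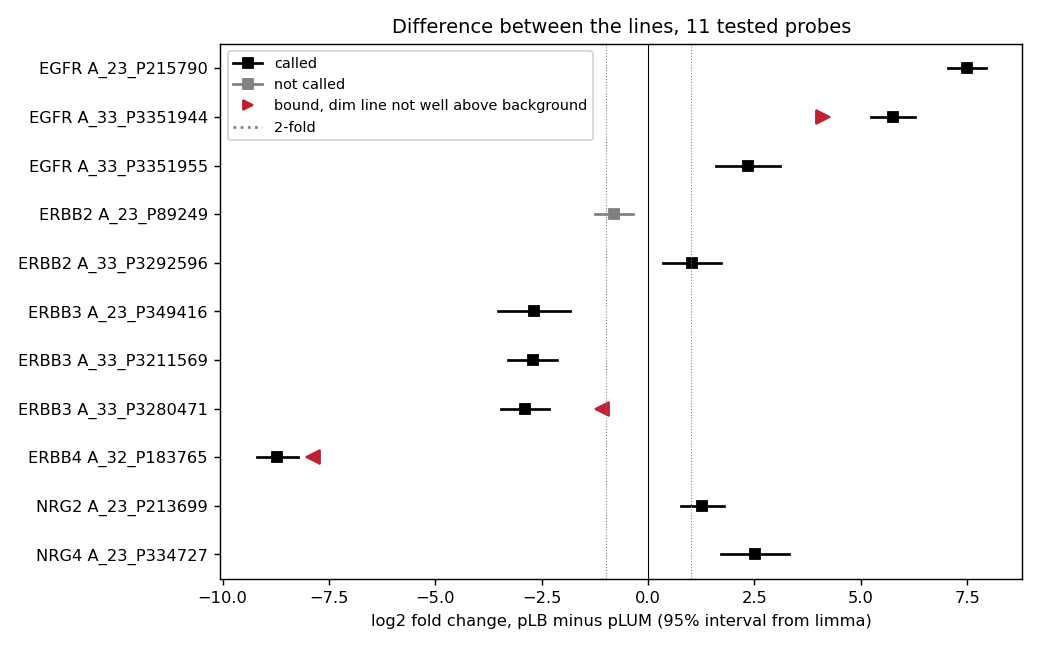
Log2 fold change of pLB against pLUM for the 11 tested probes, with 95% intervals from limma (black, called; grey, not called), and red triangles at the bound where a line was not well above background on any array. The first EGFR probe lies at 7.49, the ERBB4 probe at a bound of -7.87, and the ERBB2 probes lie on either side of 0.

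ERBB2, the receptor amplified in HER2-positive cancers, was read by 2 probes on the plus strand of chromosome 17. The paper states, without showing the data, that HER2 protein is absent from both lines, whereas the signals here are of RNA. The main probe, at 37884829 to 37884888 near the end of the transcript, also had 10 spots. It read 4.11, 3.96 and 4.05 on pLUM replicates 1 to 3, and 3.07, 3.09 and 3.54 on pLB replicates 1 to 3. Every pLUM array lay above every pLB array, with pLB replicate 3 closest to pLUM. The spots of an array were close together, with an SD of 0.032 to 0.050 on the log2 scale. ERBB2 was 1.75-fold lower in pLB (log2 change -0.80, SE 0.19, 95% interval -1.24 to -0.37, limma adjusted p = 0.0072), short of the 2-fold threshold. With spike-in scaling the change was -0.55 and its limma adjusted p was 0.18.

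**Figure D3:**
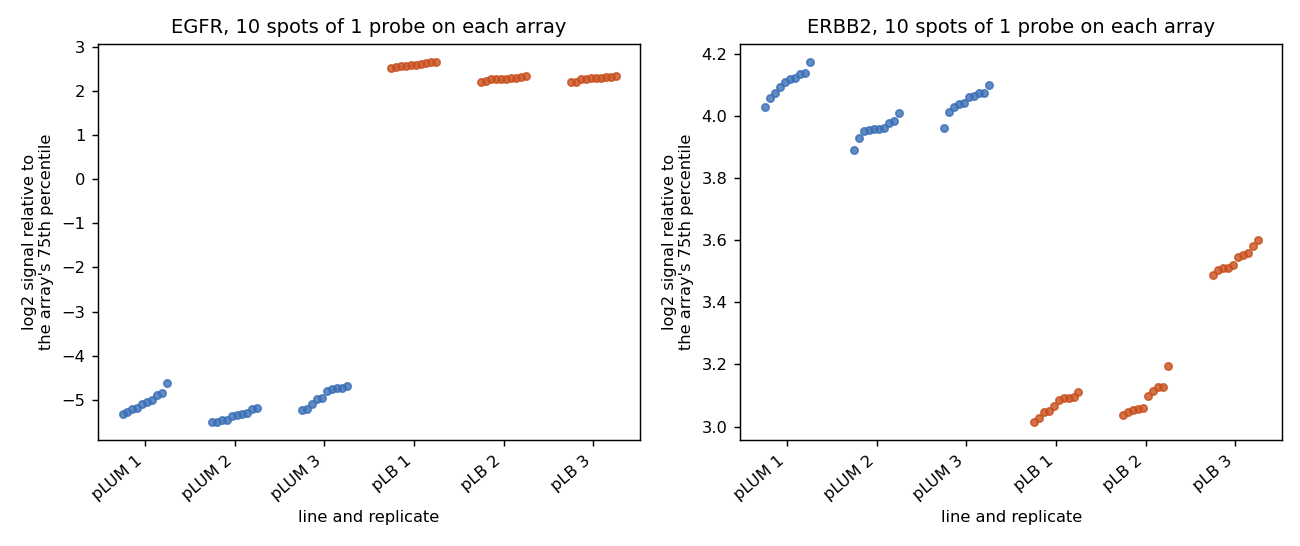
Signals of the 10 spots of the main EGFR and ERBB2 probes on each array, as log2 relative to the array's 75th percentile, with a separate axis for each gene. EGFR spots on pLUM arrays spread from -5.51 to -4.63 and all pLB spots lie above 2, whereas ERBB2 spots stay within each array's narrow band and pLB replicate 3 lies above the other pLB arrays.

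The second ERBB2 probe, at 37851136 to 37851195, is assigned to AB025286, a record for the 5′ part of the transcript. It read -2.17, -2.33 and -3.06 on pLUM and -1.73, -1.63 and -1.12 on pLB, so that it did not overlap either but pointed the other way. It was 2.04-fold higher in pLB (log2 change 1.03, SE 0.29, limma adjusted p = 0.016). This call was lost without pLUM replicate 3 (0.76), without pLB replicate 3 (0.84), with normexp (0.53) and by the methods' t-test after adjustment. With the slide as a block, which leaves only pLB replicate 1 to compare with pLUM, the change was 0.79. The difference between the changes of the ERBB2 probes was 1.83 (SE 0.27, limma adjusted p = 0.0021), and was 1.56 to 1.97 with each array left out. When the probes were averaged, the change of ERBB2 was 0.11 (adjusted p = 0.67), opposite in sign to its main probe. Probes called in opposite directions were found in 1.98% of the 4283 genes with more than 1 tested probe, and ERBB2 was not one of them, since its main probe was not called.

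ERBB3, the neuregulin receptor that signals through a partner, was read by 3 probes on the plus strand of chromosome 12. The main probe, at 56496160 to 56496219 in the distal part of NM_001982, read 1.05, 1.32 and 2.17 on pLUM replicates 1 to 3, and -0.77, -0.999 and -1.71 on pLB replicates 1 to 3. All pLUM arrays lay above all pLB arrays, and replicate 3 was the most extreme in each line. ERBB3 was 6.39-fold lower in pLB (log2 change -2.68, SE 0.36, limma adjusted p = 0.00050). A probe of NM_001005915, a shorter transcript, at 56479217 to 56479276, read 1.03, 1.11 and 1.82 on pLUM and -1.54, -1.33 and -1.32 on pLB, and was 6.57-fold lower in pLB (limma adjusted p = 6.7e-05). The difference between these probes was -0.04 (SE 0.31, not called). The coding probe shown above, at 56482380 to 56482439, read -4.34, -3.96 and -4.36 on pLUM and -7.50, -7.14 and -6.70, near background, on pLB. The lower bound of its decrease in pLB was 2.11-fold, or 1.79-fold with normexp, under which the fitted change of -0.95 was no longer called (limma adjusted p = 0.055).

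ERBB4, the only neuregulin receptor that both binds ligand and has an active kinase, was read by 2 probes on the minus strand of chromosome 2. The main probe, at 212240515 to 212240574 in the distal part of NM_005235, read 2.74, 2.54 and 2.46 on pLUM replicates 1 to 3. No pLB array showed it well above background, with readings of -5.79, -6.28 and -6.33. Thus the signal was strong in each pLUM sort and absent from the detectable range in each pLB sort, and ERBB4 was at least 235-fold lower in pLB. Normexp gave at least 51.0-fold. The limma adjusted p of 3.1e-07 belongs to the fitted log2 change of -8.72 and not to the bound. That fit uses pLB readings that were not well above background. The other probe, at 212248409 to 212248468, was well above background in neither line, so that it was not tested. It read -5.95, -5.77 and -5.97 on pLUM and -7.56, -7.97 and -6.93 on pLB. The pLUM signal of ERBB4 therefore rests on the single probe near the end of its transcript.

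Among the ligands, NRG4, which binds ERBB4, was higher in pLB. Its probe, at 76301546 to 76301605 on the minus strand of chromosome 15, read -4.61, -4.97 and -5.51 on pLUM replicates 1 to 3, and -2.88, -2.80 and -1.89 on pLB replicates 1 to 3. The lines did not overlap, pLB replicate 3 was the highest array and pLUM replicate 3, which was not well above background, the lowest. NRG4 was 5.69-fold higher in pLB (log2 change 2.51, SE 0.34, limma adjusted p = 0.00053), and 2.15 with the slide as a block. With normexp the change was 0.67 and was not called (limma adjusted p = 0.20).

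NRG2, a ligand of ERBB3 and ERBB4, was read by 2 probes on the minus strand of chromosome 5. The probe at 139227268 to 139227327 (NM_013982) read -4.60, -4.76 and -5.08 on pLUM and -3.72, -3.23 and -3.66 on pLB. It was well above background on all 6 arrays and did not overlap between lines. NRG2 was 2.42-fold higher in pLB (log2 change 1.28, SE 0.21, limma adjusted p = 0.0015), a change that normexp turned to -0.039 (limma adjusted p = 0.94). The other NRG2 probe (ENST00000544729) ranged from -7.49 to -5.38 and was well above background on no array.

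NRG1, the neuregulin best known as a ligand in the breast, had 3 probes and NRG3, which is known mainly from the nervous system, had 2. The NRG1 probes ranged from -7.95 to -6.28 and the NRG3 probes from -7.97 to -6.65. None of these 5 probes was well above background on any array, and no fold is given.

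Promoter windows from RefSeq (GRCh38.p14), covering 250 bases before a gene's start, were found for 6 of the 8 genes. The windows of EGFR and ERBB4 are shown, since these receptors differed most between the lines. Capitals mark GGGCGG or CCGCCC, the GC box on either strand, and GCCNNNGGC, the AP-2 consensus, which reads alike on both strands. Such GC boxes are in 42.6% and the AP-2 consensus in 19.8% of 35116 windows of this length.
EGFR, chr7:55018767-55019016, plus strand: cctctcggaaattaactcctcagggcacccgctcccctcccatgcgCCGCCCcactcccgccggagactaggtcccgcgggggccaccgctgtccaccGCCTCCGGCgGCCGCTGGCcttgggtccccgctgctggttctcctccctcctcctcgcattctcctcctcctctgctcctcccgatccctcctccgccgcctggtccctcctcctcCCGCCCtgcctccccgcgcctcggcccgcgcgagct
ERBB4, chr2:212538803-212539052, minus strand: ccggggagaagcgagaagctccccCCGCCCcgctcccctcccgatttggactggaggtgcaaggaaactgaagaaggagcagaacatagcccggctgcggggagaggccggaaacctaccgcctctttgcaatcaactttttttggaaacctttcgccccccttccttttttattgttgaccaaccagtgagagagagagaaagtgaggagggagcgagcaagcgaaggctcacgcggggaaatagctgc
The EGFR window shown is the first of 2 for this gene. It held 2 GC boxes and 2 AP-2 matches and had a GC content of 73.6%, higher than in 86.9% of windows, whereas the second, at 55109589 to 55109838, held no match and had a GC content of 38.8%, higher than in 10.8%. The ERBB4 window held 1 GC box and no AP-2 match, and its GC content was 57.2%, beside a median of 58.0% over all windows. Each window of NRG3, which was not well above background in either line, held 3 GC boxes and 1 AP-2 match. Each window of NRG2 held 1 GC box, and the one at 139904472 to 139904721 also held 1 AP-2 match. The windows of ERBB2 and NRG4 held no match. A match of letters is a description and not a measured binding site, and its relation to the signals was not tested.

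The genes that surround the receptors were compared as 4 lists. The list of 27 adaptors and effectors also holds the chaperones HSP90AA1, HSP90AB1 and CDC37. Of the 27 genes, 26 were tested, and 6 were higher and 6 lower in pLB. Their median log2 change was -0.06, beside 0.04 over all genes. PIK3R3, a regulatory subunit of PI3 kinase, was 13.1-fold lower, and the adaptor SHC3 was at least 3.14-fold lower. The exchange factor VAV2 was 5.82-fold higher and the kinase SRC 4.92-fold higher, while a second VAV2 probe was not called (0.50). The counts in both directions were close to the background of 22.7% and 23.0% of all genes.

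Of 29 genes of receptor turnover and feedback, not all of which limit signaling, 7 were higher (24.1%) and 5 lower (17.2%) in pLB, beside 22.7% and 23.0% of all genes, with a median of -0.24. The 4 with the largest changes were all higher in pLB. SPRY2, an inhibitor of signaling that growth factors induce, was 25.5-fold higher, and its relative SPRY4 at least 12.4-fold higher, although a second SPRY4 probe was not called (0.57). LRIG3, of a family of membrane proteins that modulate ERBB receptors, was 12.6-fold higher, and ERRFI1, which binds and inhibits the kinase of EGFR and ERBB2, was 3.23-fold higher. The next in size were close to ERRFI1 but went the other way, with TNK2 3.19-fold and CD2AP 3.11-fold lower in pLB. With spike-in scaling 2 genes of this list were called lower.

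Of 16 genes of neuregulin processing, which are proteases and gamma-secretase subunits that act on neuregulins or ERBB4 and the iRhoms RHBDF1 and RHBDF2, inactive relatives of rhomboid proteases that assist ADAM17, 9 were higher (56.3%) and 2 lower in pLB, beside 22.7% and 23.0% of all genes, and the median change was 1.20. PCSK5, a proprotein convertase, was fitted 241-fold higher, with 1 of 3 pLUM arrays well above background, and its second probe had a log2 change of 3.70. FURIN, another convertase, was at least 3.06-fold higher. ADAM10, a sheddase of membrane ligands, was 7.99-fold higher. BACE1, which cuts NRG1, ran the other way and was 8.09-fold lower, and all 3 of its probes were called lower.

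Of 18 genes next to ERBB2 on chromosome 17, which are often amplified with it, 13 were tested, and 2 were higher (15.4%) and 3 lower (23.1%) in pLB, beside 22.7% and 23.0% of all genes, with a median of -0.36. PNMT, which makes adrenaline, was fitted 8.68-fold lower, with 1 of 3 pLB arrays well above background, GSDMB, of the gasdermin family, was 5.66-fold lower, and PGAP3 was 2.19-fold lower. PSMD3, a proteasome subunit, was 2.59-fold higher. MIEN1 (log2 change -0.36), GRB7 (0.38) and STARD3 (-0.39) were not called.

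**Figure D4:**
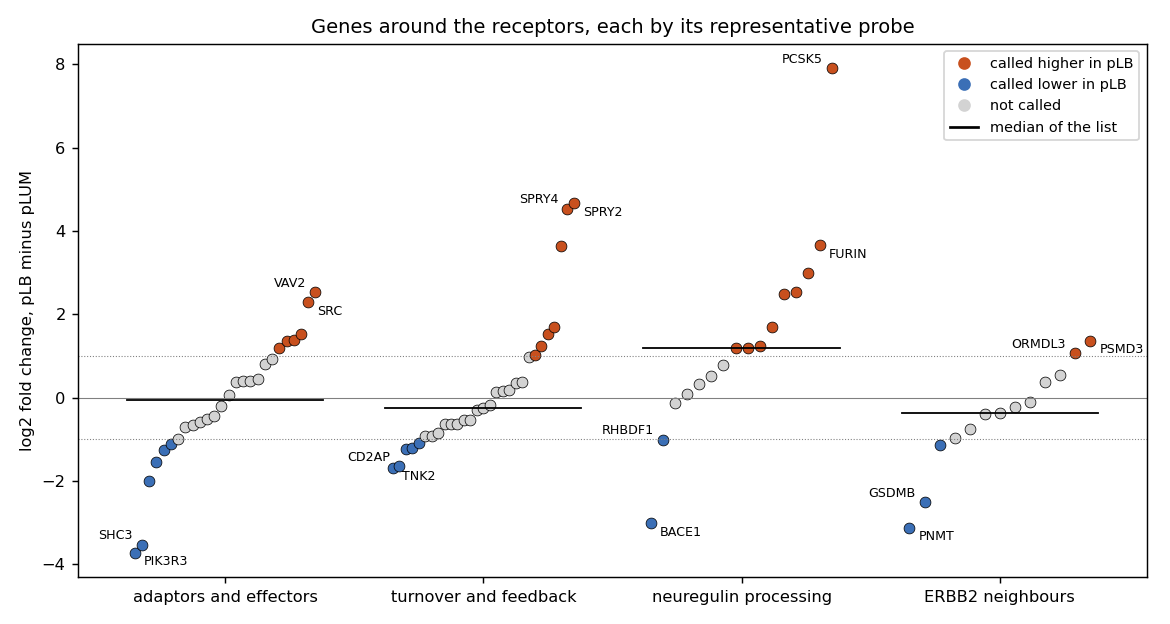
Log2 fold change of pLB against pLUM for each tested gene of the 4 lists, by its representative probe, in order of size within a list, with genes called higher (orange) or lower (blue) and a line at each list's median. The medians are -0.06, -0.24, 1.20 and -0.36 from left to right, and the processing list has 9 genes called higher.

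For EGFR, ERBB3, NRG2 and NRG4, the genes whose profile over the 6 arrays, centred on its mean, lay closest among 12967 genes were named. They were S100A2 and SPRR1B for EGFR (distances 0.29 and 0.35 on the log2 scale) and CHDH and DIP2C for ERBB3 (0.35 and 0.37). Those of NRG2 were SLC7A11 and PTTG1 (0.23 and 0.27), and those of NRG4 were CAMSAP2 and FOSL2 (0.36 and 0.42).

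**Figure D5:**
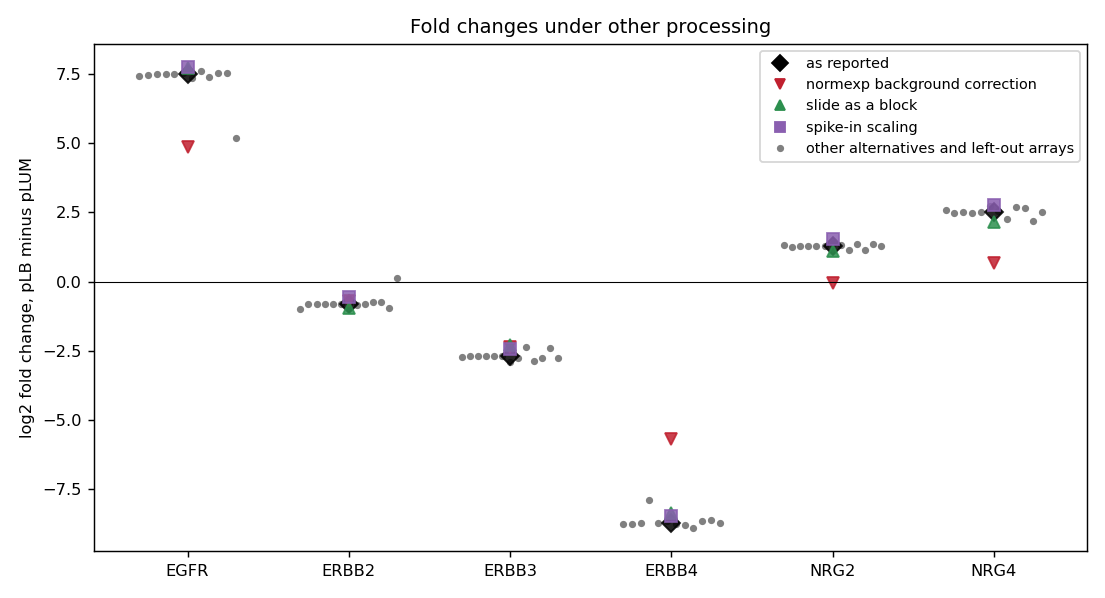
Log2 fold change of pLB against pLUM for the 6 genes with a tested probe under each alternative, with the reported value (black), normexp background correction (red), the slide as a block (green), spike-in scaling (purple) and other alternatives or left-out arrays (grey). ERBB3 stays near its reported value of -2.68, whereas normexp gives 4.87 for EGFR, a fitted -5.68 for ERBB4, of which only a bound is known, -0.039 for NRG2 and 0.67 for NRG4. Values with the slide as a block rest on pLB replicate 1 alone against pLUM.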

How the data were processed

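The authors deposited Agilent Feature Extraction 10.10.1.1 output for each array, with each spot's linear intensity background-corrected within the array but not normalized between arrays, with detection and outlier flags. The submitters' processing notes name Partek. Positions and gene names are those of the files (hg19).

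Control spots and outlier-flagged spots were left out, log2 intensities were set relative to the 75th percentile (449 to 869), and spots of a probe were averaged, and 6 probes with a missing value were not tested. All tested probes were fitted in limma 3.58.1 (R 4.3.3) without a block, since nothing states that replicate numbers pair the sorts. The unit of replication is the array. The difference between probes of a gene was fitted in limma on per-array differences. Alternatives were normexp, quantile, median and spike-in scaling, other filters, a signal floor, the methods' t-test, the slide or replicate as a block, averaged probes and left-out arrays.

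Members, lists and tests were chosen with earlier results of these data known. Named list genes are the 4 called genes of largest change, and up to 3 markers, in each list, and 2 nearest genes for each called member, those of ERBB4 not being reported here. Other genes were named after their values were seen. Promoter windows are RefSeq's, and no position was converted between builds.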

Additional observations from a re-analysis of the deposited data

How the results depend on the processing

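Of 334 alternative values, 309 kept their direction and side of the threshold, or for counts stayed within 1.5 times. Many could not move by construction, so this count is not a measure of robustness. Dropping the fold threshold or the adjustment of p reused the main fit. Other filters, the t-test and the replicate block left the log2 change of a probe as it was, as did averaging for genes with a single tested probe. Normexp correction left 3002 probes called higher in pLB, among them 2 member probes, and changed NRG2 to -0.039 and NRG4 to 0.67. It also left 6 processing genes called higher, in place of 9, and 3 turnover genes and 1 processing gene called lower. Requiring all 6 arrays above background left 2 member probes higher and 2 lower, and gave no value for EGFR, ERBB4 and NRG4. Without a fold threshold ERBB2 passed (-0.80). Quantile normalization left 1 ERBB2 neighbor higher. The slide as a block rests on pLB replicate 1 alone against pLUM, so it is not a test of a slide effect. Added after seeing the data were all alternatives for the difference between probes and, for the lists, median and spike-in scaling, the replicate block and left-out arrays. Of these, spike-in scaling left 2 turnover genes and 1 processing gene lower, and under a signal floor the ERBB3 coding probe differed from the main probe by 1.60. The floor replaces the pLB values of that probe, which sets this difference by construction. That difference was 1.41 with normexp, also with pLB signals near background, and ERBB2 was 0.11 with averaged probes. The offset of 50 added with normexp exceeded the main pLUM intensities of NRG2 (16.7 to 20.8) and NRG4 (12.5 to 19.4). Such an offset shrinks the ratio of dim signals by construction. The normexp values of NRG2 and NRG4 are therefore no independent test of their changes. The cause of the remaining changes was not tested. With each array left out, 3 to 6 turnover genes and 1 to 2 processing genes were called lower and 1 to 2 ERBB2 neighbors higher. Left-out arrays gave 7.36 to 7.59 for EGFR, -0.96 to -0.72 for ERBB2, -2.91 to -2.35 for ERBB3, -8.89 to -8.62 for ERBB4 (fitted values, beyond its bound), 1.12 to 1.39 for NRG2 and 2.19 to 2.72 for NRG4. For the ERBB3 probe differences, -0.04 and -0.22, they gave -0.35 to 0.23 and -0.70 to 0.17.

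With the replicate number as a block, 4983 probes were called higher and 5381 lower, and 5 and 4 member probes, because the 5′ ERBB2 probe was no longer called. Deviations of same-numbered sorts from their line's mean correlated at -0.27, -0.09 and -0.22, which cannot settle whether sorts were paired. The numbers were not taken as pairs because nothing states that they are. Signal over background limits the sizes for EGFR, NRG2 and NRG4, which were low in pLUM, and leaves only a bound for ERBB4.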
